A study of Mus musculus with 4 samples.

Results

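The aminoacyl-tRNA synthetases were followed in T-helper 2 cells, CD4 T lymphocytes that drive type 2 immunity through cytokines such as interleukin-4. The genes were chosen by name from a list of cytosolic and mitochondrial synthetases, and all 36 were found by gene ID and symbol among the 50600 genes of the tables, 20 cytosolic and 16 mitochondrial. Primary cells came from C57BL/6NJ mice whose sex and age the labels do not give. They form a single group of 4 RNA-seq libraries, replicates 1 to 4, and the series has no treatment, control or second cell type. All 4 libraries carry the same donor record, and the labels do not say whether they came from separate mice, so the p-values reflect no more than the variation among these 4 samples, possibly technical.

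Each aminoacyl-tRNA synthetase joins 1 amino acid to the tRNAs that carry it, the step that sets the meaning of the genetic code. The cytosolic enzymes charge tRNAs for proteins made from nuclear genes, and a separate set, also encoded in the nucleus, works inside mitochondria. In activated T cells, which grow before they divide, the demand for charged tRNA is high. When amino acids run short, uncharged tRNA activates the kinase Eif2ak4 (GCN2), translation of the transcription factor Atf4 rises, and many cytosolic synthetase genes are known targets of Atf4. The gene written Mars1 here is named Mars in the annotation used for the symbols.

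The libraries held 1804217 to 2711948 counts, so the upper limit behind a count of 0, taken as 3 counts, was 1.11 to 1.66 CPM (counts scaled to the library total). Such limits, and all values on few counts, cover counting error only. The counting kept fragments of 1 strand, and 92.2% to 95.9% of the counts of a library lay in genes whose exons overlap those of an opposite-strand gene. Counts below are therefore counts on the selected strand and are not taken as expression. The labels do not give the strand the kit keeps, so whether a count comes from the named gene or from one opposite it was not tested. The ribosomal RNA gene CT010467.1 held 1.02%, 1.14%, 28.6% and 14.4% of the counts of replicates 1 to 4. Levels are in TPM, the count per exon base, brought to a common total, so they are lowered by that gene in replicates 3 and 4. Scaling by TMM factors instead moved the median of all genes by -0.15, -0.19, 0.12 and 0.17 on the log2 scale in replicates 1 to 4. Of 8 markers of T-helper 2 cells, Gata3, Il4, Ccr4 and Ptgdr2 were above 1 TPM, where 32.1% of all genes with a count were. Il5 and Il13 were below it with at most 1 count in any library, Il4ra was not called and Il1rl1 had 0 counts. Ptgdr2 shares 1031 exon bases with Ccdc86 on the other strand and Gata3 shares 155 with Gm13256. Il4ra shares 571 with Gm44876 and Il5 shares 417 with Gm12214. Il4 had 24, 21, 25 and 26 counts, and Cd4 had 56, 67, 71 and 20. Among myeloid markers, Csf1r had 1026, 993, 1006 and 983 counts and overlaps Hmgxb3 on the other strand by 871 exon bases, Cd68 had 13, 6, 7 and 18, and Lyz2, Adgre1 and Itgam had 0. Of CD8 T cell markers, Cd8b1 had 4, 3, 3 and 3 counts and Cd8a had 0.

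Promoter sequences show a feature that part of the cytosolic genes have in common. RefSeq promoters, 250 bases before to 50 after the start in build GRCm38.p6, were matched by symbol for 27 of the 36 genes and searched on both strands for TGATGNAAN, the letters of the C/EBP-ATF response element through which Atf4 acts. A gene was taken to hold the element if any of its promoters did. This was so for 5 of 13 cytosolic genes and 0 of 14 mitochondrial ones, and for 4.5% of all 27025 symbols with a promoter. The 5 genes were Aars, Gars, Iars, Tars and Yars, the synthetases for alanine, glycine, isoleucine, threonine and tyrosine. The promoter of Aars held it at 2 places, and is shown whole from chr8:111033592-111033891 on the plus strand, 5′ to 3′, with the element in capitals, written as its reverse complement NTTNCATCA.
Aars: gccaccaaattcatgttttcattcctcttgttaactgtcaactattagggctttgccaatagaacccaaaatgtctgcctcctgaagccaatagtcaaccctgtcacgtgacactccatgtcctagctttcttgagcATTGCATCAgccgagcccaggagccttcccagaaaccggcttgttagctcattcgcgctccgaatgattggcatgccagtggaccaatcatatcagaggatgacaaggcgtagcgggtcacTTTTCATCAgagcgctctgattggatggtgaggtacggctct
The elements of the other 4 genes are shown for comparison with 10 bases on each side, 5′ to 3′ on the strand of the gene, again with the element or its reverse complement in capitals. They lie at chr6:55037960-55037988 on the plus strand for Gars, chr13:49682126-49682154 on the plus strand for Iars, chr15:11399656-11399684 on the minus strand for Tars and chr4:129189896-129189924 on the plus strand for Yars.
Gars: tggctgcgctATTTCATCAtgcaccgggc
Iars: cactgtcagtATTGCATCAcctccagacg
Tars: caggagtcccGTTGCATCAgctggttagc
Yars: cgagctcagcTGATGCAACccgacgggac
A match is a match of letters only. Among other genes of the Atf4 response with a promoter, 7 of 21 held the element: Asns, Chac1, Trib3, Pycr1, Slc7a11, Nupr1 and Vldlr.

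Cytosolic synthetases were counted at low to moderate levels, from 1.16 TPM for Farsa, a subunit for phenylalanine, to 16.3 TPM for Qars, the glutamine enzyme. Of the 20 genes, 9 were called above a level of 1 TPM and 0 were called below it (limma, one-sample and two-sided, on log2(TPM + 0.1), with a Benjamini-Hochberg adjusted p under 0.05), beside 32.1% of all 17203 genes with a count called above and 26.6% called below. Their median log2(TPM + 0.1) was 1.69 ± 1.39 (SD, n = 4), against 0.105 ± 0.497 for all genes with a count. The count called rested on replicate 4, since 16 of the 20 were above 1 TPM without it and 6 without any other 1 replicate.

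**Figure D1:**
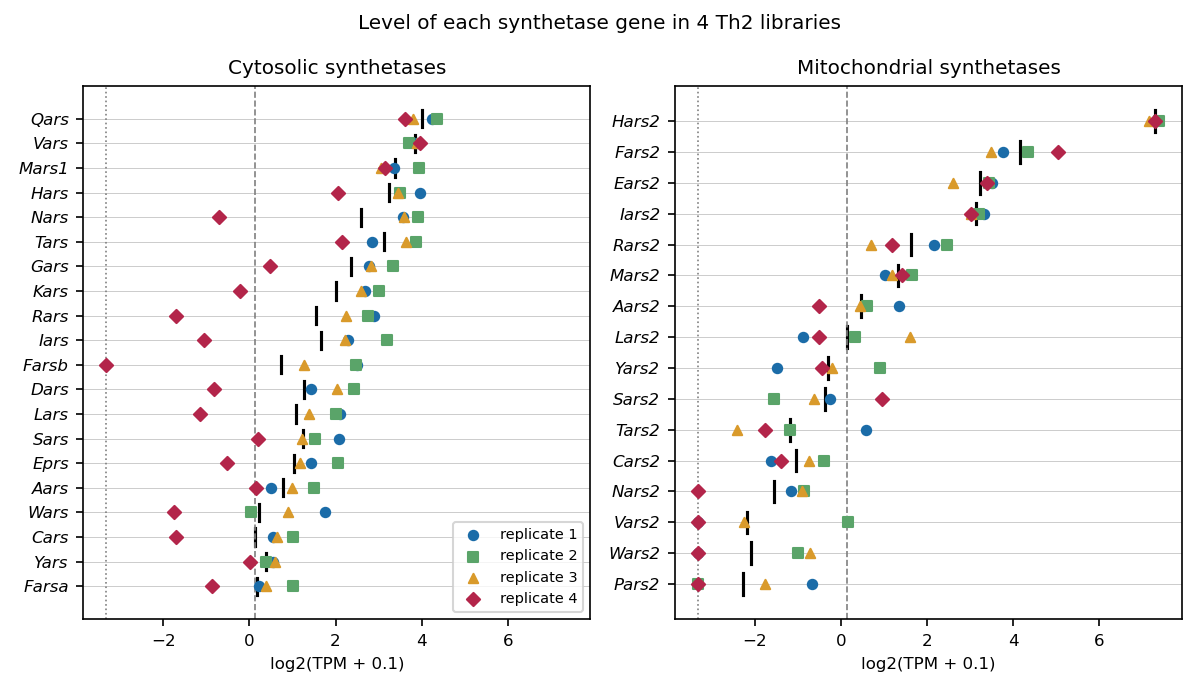
Level of the 20 cytosolic and 16 mitochondrial synthetase genes as log2(TPM + 0.1) on the x axis, 1 point per library, with a short bar at the mean of the 4 values. The dashed line is 1 TPM and the dotted line a count of 0. Replicate 4 lies left of the others for most cytosolic genes, such as Nars, and Hars2 lies apart on the right at a mean of 157 TPM.

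Among cytosolic enzymes held in the multisynthetase complex, the assembly of 8 synthetase genes' products with 3 scaffold proteins, 3 of 8 genes were above 1 TPM. That is near the share of all genes with a count called above, 32.1%. Qars had 153, 169, 151 and 119 counts, or 16.3 ± 3.94 TPM (SD, n = 4), the highest mean TPM of the cytosolic genes. Mars1, the methionine enzyme, had 43, 66, 47 and 45 counts, or 10.65 ± 3.20 TPM. The 4 libraries ran from 12.2 to 20.4 TPM for Qars and from 8.27 to 15.3 TPM for Mars1. Kars, which supplies lysine tRNA in both cytosol and mitochondria, had 35, 45, 44 and 5 counts, or 5.26 ± 3.13 TPM, with an adjusted p of 0.0176 in limma that was 0.0626 to 0.0792 when replicate 1, 2 or 3 was left out. Eprs, which joins the glutamate and proline enzymes in 1 protein, had 58, 92, 65 and 16 counts, or 2.35 ± 1.41 TPM over its long transcript. Iars, for isoleucine, had 31, 60, 40 and 3 counts, and Rars, for arginine, had 29, 27, 25 and 1. Replicate 4 was the lowest library for each of Kars, Eprs, Iars and Rars. Dars, for aspartate, was at 3.09 ± 2.06 TPM and Lars, for leucine, at 2.74 ± 1.76 TPM, with 3 and 2 counts in replicate 4. The scaffold genes Aimp2, Aimp1 and Eef1e1 were all 3 above 1 TPM, at 35.9, 8.89 and 5.01 TPM, beside the same 32.1%. Eef1e1 had 9, 13, 4 and 1 counts and an adjusted p of 0.0481 in limma. Its value in replicate 4, 0.65 TPM, lay under the 1.95 TPM that 3 counts would give. Aimp2 overlaps Eif2ak1 on the other strand by 487 exon bases, and Aimp1 overlaps Tbck by 163.

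Of the 12 cytosolic genes outside the complex, 6 were above 1 TPM, where 32.1% of all genes with a count were. Vars, for valine, had 100, 91, 137 and 129 counts, or 14.4 ± 1.10 TPM, with the smallest SD relative to its mean among the cytosolic genes. Hars, for histidine, had 38, 28, 36 and 12 counts, or 10.4 ± 4.74 TPM. Nars, for asparagine, had 38, 50, 52 and 2 counts, or 9.80 ± 6.38 TPM, and Tars, for threonine, had 23, 48, 54 and 17, or 9.55 ± 4.65 TPM. Mars1, Hars, Nars and Tars lay within 1 SD of each other and so had no order in level. Gars, for glycine, which also serves mitochondria, had 26, 39, 36 and 6 counts, or 6.23 ± 3.59 TPM. Sars, for serine, was the lowest of the genes called, at 2.54 ± 1.27 TPM with an adjusted p of 0.0407 in limma, which was 0.114 to 0.207 without replicate 1, 2 or 3. Nars was near the limit as well, with an adjusted p of 0.0402 in limma that was 0.157 to 0.208 without replicate 1, 2 or 3. Both subunits for phenylalanine were lowest in replicate 4: Farsb had 18, 18, 10 and 0 counts and Farsa 6, 11, 9 and 3. For Farsb a count of 0 there allows up to 0.770 TPM, below the 2.30 to 5.58 TPM of the other libraries. Farsa was at 0.4445 TPM in replicate 4, so the subunits were not separable in that library. Aars had 15, 32, 29 and 14 counts, and it shares 1326 exon bases with Exosc6 on its own strand. The counting was run with no option for fragments that fall in more than 1 gene. The part of this overlap in the counts of Aars was not tested. Yars, Cars and Wars, for tyrosine, cysteine and tryptophan, were at 1.22 ± 0.231, 1.24 ± 0.732 and 1.54 ± 1.33 TPM and did not pass the test.

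Mitochondrial synthetases spread over a wider range, from 0.180 TPM for Pars2, the proline enzyme, to 157 ± 10.1 TPM (SD, n = 4) for Hars2, the histidine enzyme. Of the 16 genes, 6 were above 1 TPM and 3 below (limma, adjusted p under 0.05), to be read against the same 32.1% and 26.6% of all genes. Hars2 had 844, 902, 1016 and 995 counts and alone held 73.5% ± 1.01 of the counts of the 16 genes. The median log2(TPM + 0.1) of the mitochondrial genes was 0.069 ± 0.388, near that of all genes with a count.

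Fars2, for phenylalanine, had 35, 54, 39 and 104 counts, or 19.4 ± 9.81 TPM, and was highest in replicate 4. Ears2, for glutamate, had 71, 70, 51 and 79 counts, or 9.56 ± 2.42 TPM. Iars2, for isoleucine, had 109, 102, 119 and 106 counts, or 8.79 ± 0.927 TPM. Rars2, for arginine, had 15, 19, 7 and 9 counts, or 3.38 ± 1.84 TPM. Mars2, for methionine, had 27, 43, 41 and 43 counts, or 2.43 ± 0.469 TPM, and its adjusted p in limma of 0.0139 was 0.0686 and 0.0533 without replicates 2 and 3. These 5 genes and Hars2 were the 6 called above 1 TPM. Lars2, for leucine, had 6, 16, 54 and 10 counts, highest in replicate 3, and at 1.28 ± 1.14 TPM did not pass. Aars2, for alanine, had 10, 6, 7 and 3 counts.

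The 3 genes called below 1 TPM were Pars2, Vars2 and Wars2, for proline, valine and tryptophan, with 0 to 2, 0 to 7 and 0 to 5 counts per library. Each had 0 counts in 2 of the 4 libraries, where 3 counts would be 0.652 to 0.769 TPM for Pars2. The call of Pars2 was lost without replicate 2 or 4, that of Vars2 without replicate 1, 3 or 4 and that of Wars2 without replicate 1 or 4, and with a pseudocount of 0.01 only Pars2 was called below. Cars2, Nars2, Sars2, Tars2 and Yars2 had means of 0.309 to 0.857 TPM and were not called. No listed gene was at 0 in every library, and 11 of the 36, of which 9 were mitochondrial, had a mean count under 10.

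The cytosolic median stood above the mitochondrial one by 2.23, 2.15, 2.01 and 0.09 on the log2(TPM + 0.1) scale in replicates 1 to 4, or by 1.62 ± 1.025 (SD, n = 4). In replicate 4 the medians were about equal. With genes of a mean count of at least 10 only, which left 18 cytosolic and 7 mitochondrial genes, the difference was -1.14. This filter selects on the counts themselves and took out mainly low mitochondrial genes. The change of sign therefore cannot show what the direction rests on.

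Genes on the other strand were then read beside the synthetases, as most counts of these libraries lie in genes with such overlaps. At least 50 exon bases were shared with a gene on the other strand by 11 of the 36 synthetases (30.6%), all of which had a count. The same held for 3555 of the 12330 protein-coding genes with a count, and for 20.2% of all protein-coding genes, counted or not. The 11 pairs held 5 with overlapping 3′ ends, 3 with overlapping 5′ ends and 3 with a feature inside the synthetase gene. Of the 10 partner genes that are no synthetase, 8 were above 1 TPM (limma, adjusted p under 0.05, against 32.1% of all genes) and 0 below. Together they had 1546, 1537, 1493 and 1563 raw counts in replicates 1 to 4. These sums are not scaled to the library totals, which were 1804217, 1846441, 2711948 and 2169955. Ddit3 and Rab3gap2 had their lowest counts in replicate 4, and the other partners did not.

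**Figure D2:**
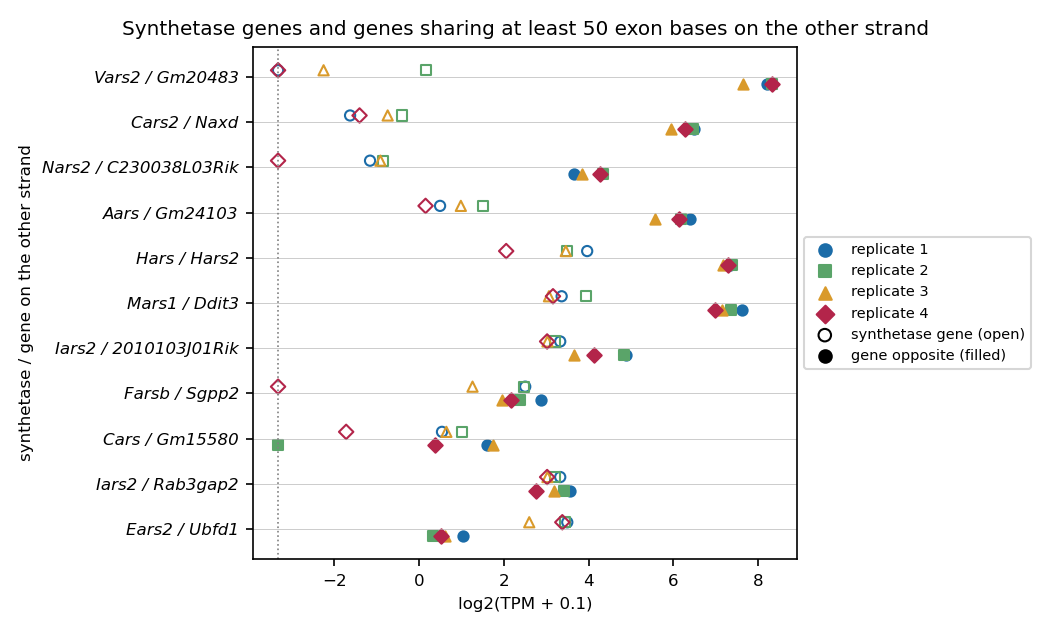
The 11 synthetase genes or pairs (open symbols) and the genes that share at least 50 exon bases with them on the other strand (filled symbols), as log2(TPM + 0.1) in each library. Partner genes lie right of the synthetase in all 4 libraries in 7 pairs, and left of it in all 4 only for Ears2 and Ubfd1.

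Hars and Hars2 are each other's partner. Head to head on chromosome 18, they share 195 exon bases at chr18:36783011-36783205, and Hars2 exceeded Hars by 4.03 ± 0.815 on the log2 scale per exon base (SD, n = 4), in 4 of 4 libraries. Hars2, on the plus strand, varied little between libraries, while Hars, on the minus strand, was lowest in replicate 4.

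Overlaps at 3′ ends included the pair of Mars1 with Ddit3, the stress transcription factor known as CHOP and itself a gene of the Atf4 response. They share 68 exon bases at chr10:127296221-127296288, and Ddit3 had 415, 355, 403 and 320 counts, 3.89 ± 0.365 above Mars1 per exon base on the log2 scale. Cars2 shares 422 bases with Naxd, which encodes a repair enzyme for damaged NAD(P)H. Naxd had 517, 522, 483 and 543 counts where Cars2 had 2, 6, 6 and 3, a difference of 7.50 ± 0.722. Vars2 shares 465 bases with the antisense gene Gm20483, which had 311, 346, 280 and 408 counts where Vars2 had 0, 7, 1 and 0. For these 3 pairs the groups of 4 TPM values did not overlap, which was not particular to them. The same held for Hars2 with Hars and, named below, C230038L03Rik with Nars2, Gm24103 with Aars and 2010103J01Rik with Iars2. It held in the reverse order for Ubfd1 with Ears2. How often such separation occurs over all opposite-strand pairs of the series is not given here, so it is not read as a trait of synthetases. Iars2 shares 2034 bases with Rab3gap2, a regulatory subunit of a Rab GTPase-activating complex, which had 155, 145, 161 and 107 counts. Here the difference per exon base, 0.083 ± 0.237, was smaller than its spread. Farsb shares 248 bases with Sgpp2, a sphingosine phosphate phosphatase gene with 36, 26, 25 and 26 counts, and Sgpp2 kept its count in replicate 4 where Farsb had 0.

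At 5′ ends, Nars2 shares 284 bases with the processed transcript C230038L03Rik, which had 65, 108, 101 and 121 counts where Nars2 had 3, 4, 5 and 0. Ears2 and Ubfd1 share 89 bases and were the exception in order: Ubfd1 had 23, 14, 23 and 19 counts and was lower than Ears2 per exon base in 4 of 4 libraries, with a log2 difference of -2.66 ± 0.504. Inside Aars, the 77-base miRNA gene Gm24103 had 8, 7, 6 and 8 counts, and inside Cars the pseudogene Gm15580 had 2, 0, 3 and 1. Inside Iars2, 2010103J01Rik had 14, 14, 8 and 10 counts. Per exon base, Gm24103 and 2010103J01Rik lay above their hosts in 4 of 4 libraries, by 5.43 ± 0.769 and 1.29 ± 0.454 on the log2 scale. The difference of Gm15580 from Cars, 1.01 ± 1.80, was smaller than its spread and was -1.48 in replicate 2. Without scaling for length the 3 differences were -1.48, -2.555 and -3.22, so their direction rests on the short length of these features. A two-sided exact permutation test by sign flips over the 11 pairs gave the smallest p that 4 libraries allow for the 8 pairs with 1 direction in all 4 libraries, which was 0.172 after Benjamini-Hochberg adjustment and cannot pass 0.05. Yars shares 30 bases with C77080, under the limit of 50, and C77080 had 67 to 90 counts per library.

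Most cytosolic genes were lower in replicate 4. Among the 18 with a mean count of at least 10, 13 fell short of the mean of replicates 1 to 3 by more than 1 on the log2 CPM scale in replicate 4, and 0 were more than 1 higher. The share of all genes with that mean count that were more than 1 lower in replicate 4 was 27.5%, and of protein-coding genes with no shared exon bases it was 56.8%. The median deviation of the 18 was -2.30, against -1.25 for those protein-coding genes. In replicates 1, 2 and 3, 0 of the 18 were more than 1 lower, where 1.28%, 0.937% and 5.15% of all genes were, and 1.34%, 0.672% and 4.88% of the protein-coding genes with no shared exon bases. Those comparisons include the low replicate 4 in the mean, which raises the deviations, so the 0 is partly built in. More than 1 higher were 6, 12 and 1 of the 18, beside 19.0%, 37.3% and 4.12% of those protein-coding genes.

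**Figure D3:**
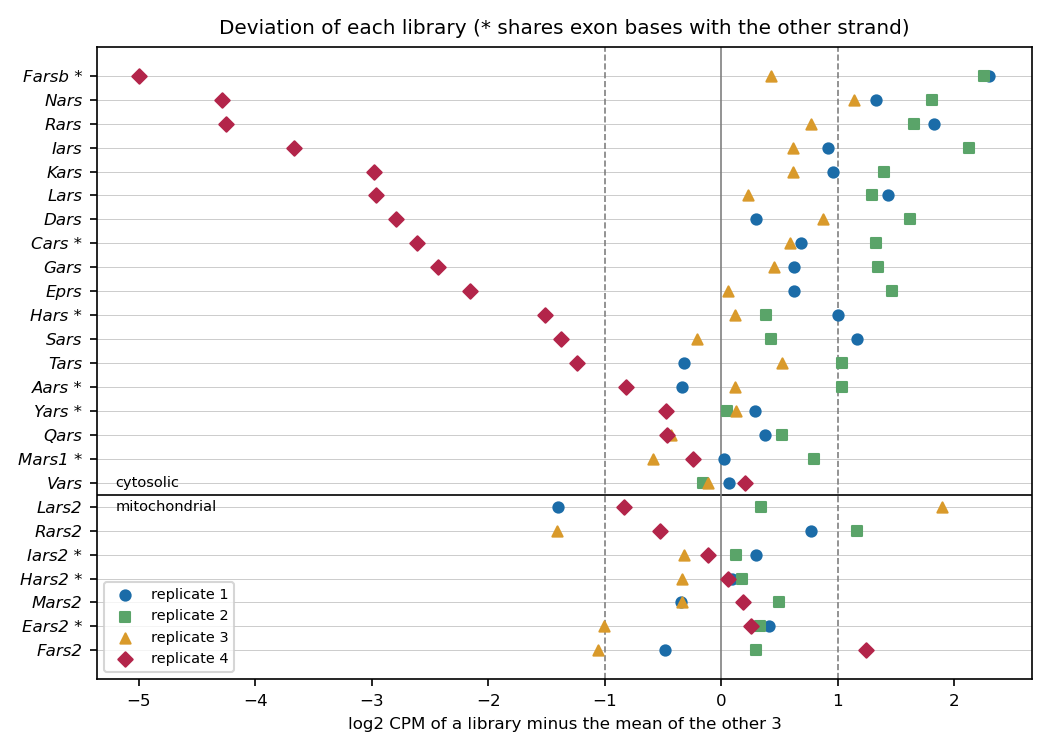
Log2 CPM of each library minus the mean of the other 3 for the 25 synthetase genes with a mean count of at least 10, with dashed lines at -1 and 1 and a star at genes that share exon bases with the other strand. Replicate 4 lies left of -1 for 13 cytosolic genes, from Tars to Farsb, and for no mitochondrial gene.

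The largest drops in replicate 4 were those of Nars, Rars and Iars, by -4.28, -4.25 and -3.66, beside Farsb with 0 counts. Kars, Lars, Dars, Cars, Gars and Eprs lay between -2.98 and -2.16, and Hars, Sars and Tars between -1.51 and -1.24. In the complex 6 of 8 genes were more than 1 lower, and outside it 7 of 10. The other 5 cytosolic genes of these 18 stayed within 1: Aars at -0.82, Yars at -0.47, Qars at -0.46, Mars1 at -0.24 and Vars at 0.20. Without Qars and Vars, the cytosolic genes summed to 455, 611, 551 and 148 counts. Of those 5, Aars, Mars1 and Yars overlap an opposite-strand gene by 77, 68 and 30 exon bases, and Qars and Vars overlap none. Over all genes with that mean count, 9.87% of those sharing at least 50 bases were more than 1 lower in replicate 4, against 52.2% of those sharing none. Among the cytosolic genes it was 3 of 5 and 10 of 12. The part of overlaps in the lower counts was not tested.

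Of the 7 mitochondrial genes with a mean count of at least 10, 0 were more than 1 lower in replicate 4 and 1, Fars2, was more than 1 higher, by 1.24. In replicate 3, Rars2, Fars2 and Ears2 were more than 1 lower, at -1.41, -1.06 and -1.01, and Lars2 was 1.90 higher. With TMM factors, and with totals that left out CT010467.1, 1 gene was more than 1 lower in replicate 3. In replicate 1 only Lars2 of the 7 was more than 1 lower, at -1.41. Whether cytosolic and mitochondrial genes differ in replicate 4 was not tested. Markers were not alike in replicate 4: Ccr4 had 32, 62, 38 and 7 counts in replicates 1 to 4, and Il4 had 24, 21, 25 and 26. Cd68 was highest in replicate 4, with 13, 6, 7 and 18 counts. Of 10 pan-T genes, 9 were above 1 TPM, against 32.1% of all genes with a count. Pan-T genes summed to 784, 760, 553 and 523 CPM in replicates 1 to 4. Most of that sum was Cd247, with 1204, 1148, 1310 and 1073 counts and 3007 exon bases shared with Pou2f1. Their median log2(TPM + 0.1) fell from 3.59, 3.80 and 2.47 in replicates 1 to 3 to 1.46 in replicate 4. Of B cell markers, Cd79a had 9, 15, 12 and 12 counts, and Cd79b, Ms4a1 and Pax5 had 0 in each library. The part of these, and of CT010467.1, in the lower counts of replicate 4 was not tested.

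The spread between replicates was also tested with edgeR, as each gene's quasi-dispersion against the trend. The default expression filter left 12 of the 36 synthetases, among them 3 of the 13 genes that were lower in replicate 4, Eprs, Hars and Tars. The other 10 were not tested for spread. No synthetase passed an adjusted p under 0.05 in edgeR, 0 of the 12 had an unadjusted p under 0.05, and DESeq2 marked 0 of 36 as dispersion outliers. Of all 4190 genes tested 0 were called, and 6.4% had an unadjusted p under 0.05. The trend was fitted to these same libraries, so a drop in replicate 4 that many genes share enters the trend. The lack of calls therefore does not show that the synthetases were even between replicates.

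Other genes of the pathway were read from lists fixed for this purpose. Of 13 genes for tRNA maturation, delivery and proofreading, 6 were above 1 TPM and 2, Dtd2 and Sepsecs, below, where 32.1% and 26.6% of all genes were. Eef1a1, the elongation factor that carries charged tRNA to the ribosome, had 827, 1014, 928 and 167 counts, or 215 ± 120 TPM, and has no exon overlap across strands. Eef1g, of the same factor's exchange complex, had 117, 121, 125 and 57. Both were thus lowest in replicate 4, as most cytosolic synthetases were. Pstk, a kinase for selenocysteine tRNA, overlaps Ikzf5 by 4652 exon bases and had 1457, 1375, 1576 and 1385 counts. Trnt1, which adds the CCA end, overlaps Crbn by 144 and had 486, 462, 540 and 502. Scaled to the library total, Pstk was at 808, 745, 581 and 638 CPM and Trnt1 at 269, 250, 199 and 231 CPM. In replicate 4 both thus lay below replicates 1 and 2 and above replicate 3. In TPM, Pstk was lowest in replicate 4, at 117.7 against 120.0 in replicate 3.

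Of 6 accessory genes for charging in mitochondria, 1 was above 1 TPM and 0 below, beside the same 32.1% and 26.6%. That gene was Gatc, a subunit of the amidotransferase that makes glutamine tRNA, with 207, 163, 164 and 213 counts, or 75.0 ± 16.1 TPM, and no shared exon bases. Its partner subunit genes Gatb and Qrsl1 were at 0.424 and 1.63 TPM. The elongation factor genes Tufm and Tsfm were at 2.29 ± 1.75 and 1.66 ± 0.839 TPM.

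In the list of the Atf4 response, 9 of 24 genes were above 1 TPM, 4 were below and 2, Nupr1 and Vldlr, had 0 counts in all libraries. Of the 22 with a count, 40.9% were thus above, near the 32.1% of all genes. Atf4 itself had 48, 40, 38 and 15 counts, or 15.03 ± 7.21 TPM. Slc3a2, the heavy chain of amino acid transporters, had 100, 86, 111 and 91 counts, or 19.7 ± 2.39 TPM. Psph, of serine synthesis, had 2368, 2399, 2650 and 3532 counts, or 450.2 ± 74.0 TPM, and shares 452 exon bases with the chaperonin gene Cct6a. Ddit3 at 157 ± 30.8 TPM is the partner of Mars1 named above. The 4 genes below 1 TPM were Asns, Chac1, Trib3 and Slc7a11, all of which hold the promoter element, with 0 or 1 count per library except 4 of Slc7a11 in replicate 3. The 5 synthetases that hold the element ran from 1.22 TPM for Yars to 9.55 TPM for Tars.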

How the data were processed

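Each of the 4 libraries had 1 gene table of raw counts. Fragments with both ends aligned were counted by the authors over GENCODE M13 exons using featureCounts 1.4.6-p4, strand setting 1, per the file headers, with no option for fragments that fall in more than 1 gene. The labels give mm10. Total RNA is named as the assay, a poly(A) protocol is linked, and paths in the headers name 24 hours. The deposited counts are not normalized.

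The members and lists were chosen with earlier results of these data known. Symbols were matched for 50376 of 50600 gene IDs. TPM was count over exon length, rescaled per library. Exons were merged per gene, and bases shared across strands were summed. The level test (limma 3.58.1, trended and robust, log2(TPM + 0.1), null of 1 TPM) ran over the 17203 genes with a count, and spread was tested with an intercept-only quasi-likelihood fit in edgeR 4.0.16 with TMM factors, robust. DESeq2 1.42.0 was an alternative. Adjustment was by Benjamini-Hochberg, threshold 0.05. Deviations used a prior of 0.5 counts. Both tests were checked on simulated counts and the overlap geometry on a made-up locus. Depth was 1804217 to 2711948 counts.

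Counts per library are printed for the 12 cytosolic and 8 mitochondrial genes highest in mean count and for partners with at least 50 shared bases and a mean count of at least 100, as the naming rule says, with up to 4 genes of each related list. Counts of the other members and partners were added after their values were seen. The split by complex membership, the search for near neighbours and 3 alternatives were added after seeing the data.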

Additional observations from a re-analysis of the deposited data

Results flagged for a closer look

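Of 33 synthetase genes and partner genes with a mean count of at least 10, 1 had a library far from the other 3. Ears2 was lowest in replicate 3, at 5.96 TPM against 11.2, 10.8 and 10.3 TPM in replicates 1, 2 and 4, with the gap covering 0.832 of the range. Its counts were 71, 70, 51 and 79. Chance alone marks about 1 group in 20.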

How the results depend on the processing

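The number of cytosolic synthetases above 1 TPM was 9 and stayed within 1.5 times that number with other pseudocounts, TMM factors, DESeq2 size factors, a mean count of at least 10 and a level of 2 TPM. It was 16 against a level of 0.5 TPM, and 6 to 16 with single replicates left out, the highest without replicate 4. The mitochondrial number above, 6, ran from 4 to 7 over all these settings, and the number below, 3, from 0 to 8. The cytosolic minus mitochondrial median difference was -1.14 with a mean count of at least 10 and 1.37 to 2.13 otherwise, and 1.68 among genes with no shared exon bases, an alternative added after seeing the data. Without an expression filter, edgeR called 2 of 36 synthetases as variable, Iars and Nars, beside 345 of 17203 genes. With at least 200 shared bases, 6 partner genes were left of 10. With a mean count of at least 20, 8 of 18 synthetases were more than 1 lower in replicate 4, and the number was 13 with TMM factors and with totals that left out CT010467.1. Without scaling for length, the differences of Gm24103, Gm15580 and 2010103J01Rik from their hosts became -1.48, -2.555 and -3.22. The number of partner genes that lay higher in every library, 7, was 7 to 9 with single replicates left out. The cause of these changes was not tested. Genes under 3 counts in a library were not separable from 0.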

Other observations

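Among the 24 synthetase genes with no exon overlap across strands, 7 have an opposite-strand gene within 200 bases, in 6 cases on the 5′ side. Rars2 starts 13 bases from Orc3, an origin recognition complex gene with 115, 74, 109 and 98 counts, where Rars2 had 15, 19, 7 and 9. Kars lies 75 bases from Terf2ip, which had 5, 6, 10 and 3 counts. Fars2 lies 54 bases from Lyrm4, a gene of iron-sulfur cluster assembly with 1, 4, 3 and 0 counts, and Sars2 lies 172 bases from Mrps12, with 11, 6, 11 and 2. Wars and Eprs lie 98 and 179 bases from Wdr25 and 4930532G15Rik, which had 0 counts in each library. On the 3′ side, Mars2 lies 188 bases from Boll, with 15, 6, 16 and 5 counts.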
